A study of Mus musculus with 4 samples.

Results

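The MYC network was followed as 10 transcripts, 10 of the 21861 features of the count matrices, across the cell types of mouse brain tumors driven by human MYCN. Members were chosen by name: the transgene features FLUC (firefly luciferase) and humanNMYC (human MYCN), and the 8 mouse genes Mycn, Myc, Mycl, Max, Mxd1, Mxd4, Mxi1 and Mga. Mice carried hGFAP-cre together with homozygous floxed Trp53 and 1 lsl-MYCN allele, so that Cre removed Trp53 and at the same time released human MYCN and luciferase from the Rosa26 locus. The hGFAP promoter is active in radial glia, whose descendants include neurons, astrocytes and oligodendrocytes, but not vessel or immune cells. Tumors of mouse 4 and mouse 5 were taken at 43 days (P43) and those of mouse 6 and mouse 7 at 70 days (P70), and all 4 tumors share the Trp53 deletion and the transgene, so no tissue without MYCN was part of the comparison.

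MYC, MYCN and MYCL are transcription factors that bind DNA as dimers with MAX, at the E-box CACGTG and related sequences, and raise genes of ribosome production, metabolism and division. MXD1, MXD4 and MXI1 dimerize with the same partner MAX, bind the same boxes, and bring SIN3 and histone deacetylases that lower transcription. They are known from resting and differentiating cells. MGA is a large MAX partner that acts in a Polycomb-type repressor complex. In the developing brain, MYCN is the family member of proliferating neuronal precursors, and MYC is used widely in activated lymphocytes and other dividing cells.

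In the GENCODE vM21 annotation of GRCm38, Mycn lies at chr12:12936093-12941914 and Max at chr12:76937269-76962201, Mxd4 at chr5:34173883-34187720, Mxd1 at chr6:86647042-86669161, Mycl at chr4:122995652-123002485, Mxi1 at chr19:53310518-53375810, Mga at chr2:119897228-119969581 and Myc at chr15:61985391-61990374. RefSeq promoter windows of GRCm38.p6, from 250 bases before to 50 bases after the start, were matched for 7 of these 8 genes in 9 entries and searched for CACGTG, which reads the same on both strands. It occurred in 2 of the 9 entries, those of Max and Mxd4, and in 7.15% of all 32851 windows searched. The windows are shown for Max and Mxd4 because they hold the box (capitals), beginning 3 bases before the start of Max and 219 bases before that of Mxd4, and for Mycn, the endogenous counterpart of the transgene, in whose window those letters were not found. They lie on the minus strand at chr12:76962199-76962498 (Max), chr5:34187661-34187960 (Mxd4) and chr12:12941787-12942086 (Mycn), and a match describes the letters, not binding.
Max: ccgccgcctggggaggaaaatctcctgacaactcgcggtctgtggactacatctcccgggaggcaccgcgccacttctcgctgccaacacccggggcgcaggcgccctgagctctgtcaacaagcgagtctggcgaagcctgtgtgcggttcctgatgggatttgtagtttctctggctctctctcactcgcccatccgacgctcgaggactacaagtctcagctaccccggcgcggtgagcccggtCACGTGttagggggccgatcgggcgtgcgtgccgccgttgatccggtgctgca
Mxd4: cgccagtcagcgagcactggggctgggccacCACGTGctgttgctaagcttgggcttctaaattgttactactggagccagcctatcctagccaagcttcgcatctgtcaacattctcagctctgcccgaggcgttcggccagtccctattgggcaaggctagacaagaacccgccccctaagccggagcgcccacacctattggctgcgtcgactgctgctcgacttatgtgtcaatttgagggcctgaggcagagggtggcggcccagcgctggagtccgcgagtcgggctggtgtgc
Mycn: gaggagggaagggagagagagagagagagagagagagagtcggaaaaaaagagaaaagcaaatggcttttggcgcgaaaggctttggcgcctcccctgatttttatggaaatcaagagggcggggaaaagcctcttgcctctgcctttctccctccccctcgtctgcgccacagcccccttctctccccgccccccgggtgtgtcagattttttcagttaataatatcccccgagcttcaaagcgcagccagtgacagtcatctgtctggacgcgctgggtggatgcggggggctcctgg

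Libraries held 1739 to 3693 barcodes with 13106786 to 40621958 unique molecular identifiers (UMIs, 1 per captured mRNA), and 10975 cells passed the filters, with medians of 1419, 4200, 4587 and 10449 UMIs per cell in mice 4 to 7. Of 11834 barcodes, 15 occurred in 2 libraries. The Y-linked genes summed to 221 CPM in mouse 4, labelled female, and to 0.507 CPM in mouse 5, labelled male. These libraries thus go against their sex labels, and several results that rest on them are also given without them. Comparisons with normal mature oligodendrocytes could not be, since that class reached 20 cells in these mice only. Both are labelled P43. An exchange between these libraries would leave the age groups as labelled, but whether others were involved was not tested. In mice 6 and 7 the Y-linked genes summed to 188 and 0 CPM. Library preparation is not given by age, and age and preparation cannot be told apart. Cells were named from fixed marker lists after clustering without the 10 members. Clusters with at least 500 CPM of FLUC plus humanNMYC within a mouse were tumor: oligodendrocyte-like (OL-like, 224 to 2238 cells a mouse), neuroblast-like (NB-like, 617 cells, mice 6 and 7 only) and astrocyte-like (AC-like, 263 cells, mostly of mice 6 and 7). A further cluster over the limit was left unnamed. Set against vessel and immune cells, not against each other, the named clusters raised 7 or 8 of 8, 8 of 11 and 7 or 8 of 8 markers of their lists. AC-like cells of mice 6 and 7 held 362 and 659 CPM of oligodendrocytic lineage markers beside 1860 and 897 CPM of astrocyte markers. OL-like holds a cluster of 275 cells (222 of mouse 7) with Tubb3 and Neurod2 beside Olig1 and Olig2 among its 10 leading genes. It also holds 400 and 40 cells of 2 clusters led by mature oligodendrocyte markers, from mice 6 and 7. Their counterparts in mice 4 and 5 lay under the limit and are called normal mature oligodendrocytes (MOL). Normal here means under the limit, not free of the transgene. Normal classes were MOL, oligodendrocyte precursors (OPC), neurons, endothelial cells (EC), mural cells (with 36 cells of mouse 4 carrying fibroblast markers), myeloid cells, dendritic cells (DC), lymphoid cells and neutrophils. Levels are in CPM, a gene's UMI count scaled to a common total after the cells of 1 class and mouse were summed. Each mouse thus gives 1 value per class. Between classes and within OL-like cells the mouse was a term of the fit, and p-values measure the scatter left after it. Between classes that scatter was pooled over all of them. For NB-like cells, AC-like cells and MOL, with 2 mice each, it rests largely on other classes. Only for age do p-values measure the spread between mice.

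FLUC and humanNMYC, the products of the released allele, were found at high levels in every tumor class and at low levels in the normal classes. A small unnamed cluster with still higher levels is described at the end. Because their sum named the tumor cells, this is a description and carries no test. FLUC in OL-like cells was 640, 1877, 1684 and 1071 CPM in mice 4 to 7, and humanNMYC was 236, 1269, 1348 and 693 CPM. Mouse 4 was thus the lowest in both and mice 5 and 6 the highest, with each age holding 1 mouse of the upper and 1 of the lower pair. NB-like cells held 1246 and 1447 CPM of FLUC in mice 6 and 7 and 1422 and 994 CPM of humanNMYC. AC-like cells held 796 and 1287 CPM of FLUC and 652 and 753 CPM of humanNMYC. The ranges of the 3 tumor classes overlapped for both features, and those of AC-like cells and OPC, the next class in order, did not.

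**Figure D1:**
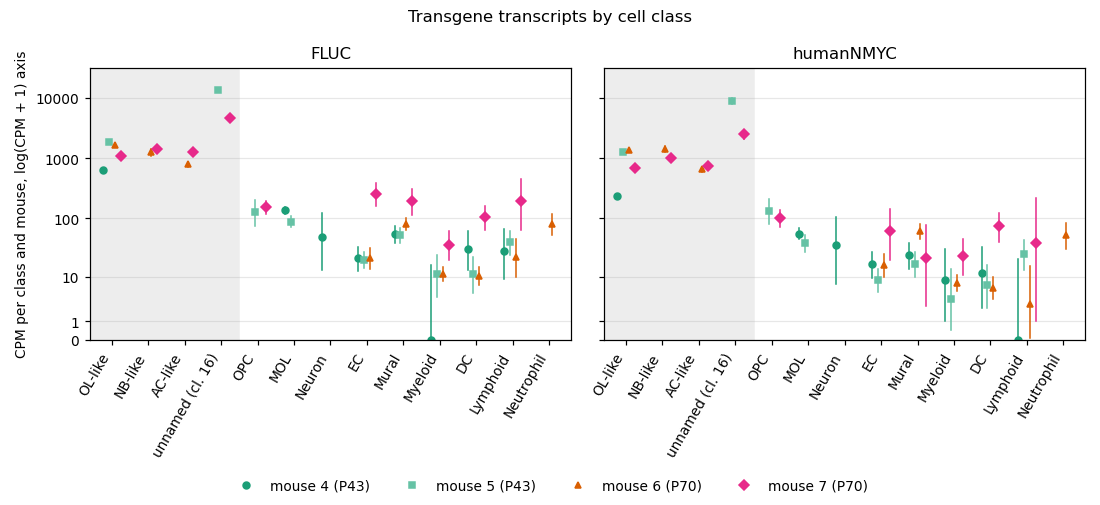
CPM of FLUC (left) and humanNMYC (right) by cell class on a log(CPM + 1) axis, 1 point per mouse with its exact 95% Poisson interval. Shading marks the tumor classes and the unnamed cluster 16, which holds the highest points and is not a tumor class here. Tumor points start at 640 CPM of FLUC and 236 CPM of humanNMYC, and the highest normal point is that of endothelial cells of mouse 7 with 257 CPM of FLUC.

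Among normal neural cells, OPC held 128 and 155 CPM of FLUC in mice 5 and 7, and MOL held 136 and 88.3 CPM in mice 4 and 5. The latter pool 2 clusters, 1 with 250.6 and 197 CPM of FLUC plus humanNMYC (443 and 42 cells), whose counterparts in mice 6 and 7 were over the tumor limit, and 1 with 7.62 and 27.0 CPM (38 and 33 cells). Myeloid cells, which Cre does not reach, had 0, 11.2, 11.3 and 36.3 CPM of FLUC and 8.59, 3.75, 7.69 and 23.4 CPM of humanNMYC in mice 4 to 7, which is taken here as the background level. From OPC down to myeloid cells, each class overlapped its neighbour for FLUC. This did not hold for humanNMYC. OPC had 135.4 and 101.5 CPM of it in mice 5 and 7, above every other normal class, whose highest value was 73.48 CPM in DC of mouse 7. MOL, with 38.55 to 55.26 CPM, did not overlap neurons of mouse 4, with 35.97 CPM from 3 UMIs. Mouse 7 was the highest in EC, with 257 CPM of FLUC against 19.9 to 21.3 CPM in the other mice, but its EC sum rests on 38 cells. Just under and just over the limit that named tumor cells lay the fibroblast-marker cells of mouse 4 with 368 CPM and a mature oligodendrocyte cluster of mouse 7 with 667 CPM of both features. After thinning each cell to 2000 UMIs, FLUC was seen in 62.5%, 84.3%, 79.4% and 74.4% of OL-like cells of mice 4 to 7 and in 0%, 2.99%, 1.57% and 3.37% of myeloid cells, where 0 of 40 cells in mouse 4 allows 7.5%. The corresponding shares for humanNMYC in OL-like cells were 27.3%, 73.8%, 73.4% and 61.2%. Cells under 2000 UMIs were left out of these shares, which kept 707 of 1787 OL-like cells in mouse 4.

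UMIs of the transgene did not divide between its features in the same way in every tumor. FLUC took 73.1% (95% exact binomial interval 72.1 to 74.1) of FLUC plus humanNMYC UMIs in OL-like cells of mouse 4, against 59.7%, 55.5% and 60.7% in mice 5 to 7. In NB-like cells the share was 46.7% (42.7 to 50.8) in mouse 6 and 59.3% in mouse 7, and in AC-like cells 55.0% and 63.1%. Mouse 4 therefore carried more FLUC per humanNMYC than the other 3 tumors, and NB-like cells of mouse 6 less, beyond counting error, which is all these intervals cover. Of the normal cells, MOL of mouse 4 had 71.1% (65.7 to 76.1), near its own tumor cells. MOL of mouse 5 had 69.6% (60.7 to 77.5), above the 59.7% of its OL-like cells. Since 3′ tags count transcript ends, the share says how tags divide, not how much protein is made.

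Mycn, the endogenous gene of the transgene's product, was nearly absent from OL-like cells. There it had 3 UMIs (0.34 CPM) in mouse 4, none in mice 5 and 6, where 3 counts would be 0.631 and 0.673 CPM, and 30 UMIs (1.05 CPM) in mouse 7. EC of mice 4 and 5 held 22.0 and 21.9 CPM (21 and 43 UMIs), and EC of mice 6 and 7 held 1.71 CPM (2 UMIs) and none, the latter allowing 36.8 CPM. The 2 P43 values lay above all OL-like values, and the P70 values did not separate from them. Over the 4 mice Mycn was lower in OL-like cells than in EC by a log2 difference of -4.53 ± 0.92 (SE), with a Benjamini-Hochberg adjusted p of 0.000229 in edgeR's quasi-likelihood test. The call was kept without any single mouse, and without both mice 4 and 5 Mycn fell under the count filter and could not be tested. Mycn passed that filter through EC, neurons and OPC only, and without the filter the difference was -4.43 (adjusted p = 1.9e-05). Neurons of mouse 4 had 36.0 CPM from 3 UMIs, OPC 21.4 and 2.42 CPM, MOL 3.1 and 3.04 CPM and lymphoid cells 5.67, 8.33, 0 and 0 CPM, where the difference of OL-like cells (-3.07 ± 1.25, adjusted p = 0.0497) was lost without mouse 4 (0.225) or mouse 5 (0.549). No UMI was found in mural, myeloid or AC-like cells of any mouse with at least 20 such cells. Human MYCN and mouse Mycn are alike in sequence, and reads of stretches they share could be given to either feature or dropped, so these levels are uncertain in cells with the transgene. OL-like cells with 236 to 1348 CPM of humanNMYC nevertheless gave at most 1.05 CPM of Mycn.

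Myc was highest in lymphoid cells and low in tumor cells. Its level in OL-like cells was 2.60, 0.84, 1.12 and 1.61 CPM in mice 4 to 7, against 22.7, 18.7, 59.1 and 78.5 CPM in lymphoid cells, where the last rests on 2 UMIs. Groups did not overlap, and the log2 difference was -4.18 ± 0.90 (adjusted p = 0.000336, edgeR), called under all alternatives tried. DC gave 7.66, 30.9, 5.11 and 5.25 CPM (log2 difference -3.30 ± 0.90, adjusted p = 0.00269), with mouse 5 far above the others and the call lost without it (adjusted p = 0.189). Myeloid cells gave 8.59, 24.4, 6.81 and 0 CPM (-2.81 ± 0.91, adjusted p = 0.00933), a call that was also lost without mouse 5 (adjusted p = 0.139). In mural cells all 29 Myc UMIs came from mouse 6 (32.1 CPM), and the difference of -2.20 (adjusted p = 0.0462) turned to 5.42 (adjusted p = 0.102) without that mouse and was lost without mouse 7 (adjusted p = 0.0969). AC-like cells had 8.0 and 6.65 CPM, and NB-like cells 0 and 1.40 CPM.

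Mycl, the third MYC paralog, showed a different pattern, with its highest levels in DC, OL-like and NB-like cells. DC held 15.3, 33.7, 36.1 and 21.0 CPM and OL-like cells 8.60, 13.0, 29.2 and 11.3 CPM, so these ranges overlapped. Within each mouse the DC value was the higher, but those of mice 4 and 7 rest on 4 UMIs each. NB-like cells held 17.6 CPM (4 UMIs) and 10.4 CPM (89 UMIs) in mice 6 and 7. They were not called against OL-like cells (-0.38 ± 0.70, adjusted p = 0.793, edgeR). The log2 difference between OL-like cells and DC was -1.38 ± 0.50 (adjusted p = 0.0212, edgeR), and the call was lost without mouse 4, 5 or 7 in turn and with DESeq2 (adjusted p 0.0792 to 0.156). Lymphoid cells gave no Mycl UMI in any mouse, which makes OL-like cells at least 4.38-fold higher when 3 counts over all lymphoid UMIs are taken as the limit. Mural cells gave 1 UMI in all, against 590 in OL-like cells, and the difference was called (adjusted p = 0.000263). With the UMIs of all mice pooled the ratio was 33.2 (exact 95% interval 5.94 to 1310). That 1 UMI made 10.7 CPM in the 37 mural cells of mouse 7, near the 11.3 CPM of its OL-like cells, so the ranges overlapped. MOL of mice 4 and 5 gave 2 UMIs against 138 in OL-like cells of the same mice, a ratio of 13.2 (3.58 to 110), called with an adjusted p of 0.00675 that became 0.161 without mouse 5. EC and myeloid cells lay between, and their differences of 1.23 and 1.5 were not called (adjusted p = 0.0891 and 0.0638).

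Max, the common partner of both the MYC and MXD proteins, varied little. OL-like cells held 70.8, 59.3, 45.3 and 60.9 CPM, and means of the other classes with more than 1 mouse lay between 39.2 and 91.8 CPM, with overlapping ranges between most neighbours in that order. EC, the highest of these, held 105, 135, 90.4 and 36.8 CPM, the last from 3 UMIs. The log2 difference of OL-like cells from EC was -0.80 ± 0.27 (adjusted p = 0.0140, edgeR), and leaving out mouse 5 gave -0.45 with an adjusted p of 0.265. The call was also lost without mouse 4 (0.0727), without mouse 6 (0.0525) and without mice 4 and 5 (0.466). Mga, the Polycomb-type MAX partner, was at 74.7, 143, 89.5 and 84.4 CPM in OL-like cells, with mouse 5 above the other 3, and was not called in any comparison between classes. Its difference between OL-like and myeloid cells was 0.01 ± 0.28.

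Mxd1, the MXD repressor best known from differentiating blood cells, was lower in OL-like cells than in every normal class it was compared with. It measured 8.71, 9.46, 14.4 and 7.15 CPM in OL-like cells, below every value of the 6 normal classes compared with it and below the 36.0 and 20.8 CPM of AC-like cells. EC held 21.0, 23.5, 50.3 and 36.8 CPM, mural cells 29.6, 33.7, 54.2 and 42.8 CPM, and MOL 42.2 and 47.7 CPM. Myeloid cells held 21.5, 39.4, 287 and 51.9 CPM, DC 61.3, 26.7, 342 and 142 CPM and lymphoid cells 62.4, 37.5, 354 and 157 CPM, with mouse 6 the highest in all 3 immune classes. The log2 differences ran from -1.58 against EC to -3.85 against DC, with adjusted p between 7.77e-09 and 0.00274 in edgeR. Against EC the call was lost without the mouse as a block (adjusted p = 0.0534) and with the reporter limit set over all mice (adjusted p = 0.0507). Neutrophils of mouse 6 reached 739 CPM. Neutrophil markers were also found in the immune classes of that mouse: the 7 marker genes summed to 454 CPM in its myeloid cells with none at 0, against 275, 56.2 and 41.5 CPM in mice 4, 5 and 7 with 4, 3 and 6 of them at 0. In DC the sums were 0, 2.81, 28.3 and 0 CPM, in lymphoid cells 0, 8.33, 28.1 and 0 CPM, and in the neutrophils themselves 262600 CPM, and their part in the Mxd1 levels was not tested.

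Mxd4, an MXD repressor of many resting tissues, divided the classes into a high and a low range. Mural cells (326, 398, 334 and 278 CPM) and EC (358, 377, 304 and 257 CPM) were highest. OL-like cells held 188, 145, 149 and 146 CPM, with mouse 4 apart from the others, and lay below EC and mural cells in every mouse without overlap. Myeloid cells (47.2, 56.2, 31.7 and 57.1 CPM), DC (53.6, 42.2, 35.1 and 42.0 CPM) and NB-like cells (52.7 and 41.8 CPM) were lowest among classes with more than 1 mouse (neutrophils of mouse 6 had 36.7 CPM), each without overlap with OL-like cells. OL-like cells were lower than EC by -1.07 ± 0.22 (adjusted p = 0.000144, edgeR) and than mural cells by -1.03 ± 0.22 (0.000277), and higher than myeloid cells by 1.29 ± 0.24 (3.66e-05) and than DC by 1.45 ± 0.25 (1.09e-05). Without mice 4 and 5 the difference from EC was -0.94 with an adjusted p of 0.0742, and the other 3 calls were kept. At 2000 UMIs per cell, 18.6% to 27.0% of OL-like cells of the 4 mice had an Mxd4 UMI, against 40.1% to 52.8% of EC in mice 4 to 6, 36.4% of 11 EC in mouse 7 and 6.19% of NB-like cells of mouse 7.

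Mxi1, another MXD repressor, was more variable. OL-like cells held 56.0, 112, 87.2 and 144 CPM, more than the 19.2, 19.7, 28.6 and 68.2 CPM of DC in each mouse (1.18 ± 0.40, adjusted p = 0.0139, edgeR) and more than the 17.0, 41.7, 30.9 and 0 CPM of lymphoid cells (1.51 ± 0.46, adjusted p = 0.00847). The count of 0 in lymphoid cells of mouse 7 allows 117.8 CPM. Without mouse 5 the difference from DC gave an adjusted p of 0.106, and without mice 4 and 5 both differences were lost (0.185 and 0.0634). AC-like cells ran from 110 CPM in mouse 6 to 442 CPM in mouse 7, the highest level of Mxi1 in any class.

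**Figure D2:**
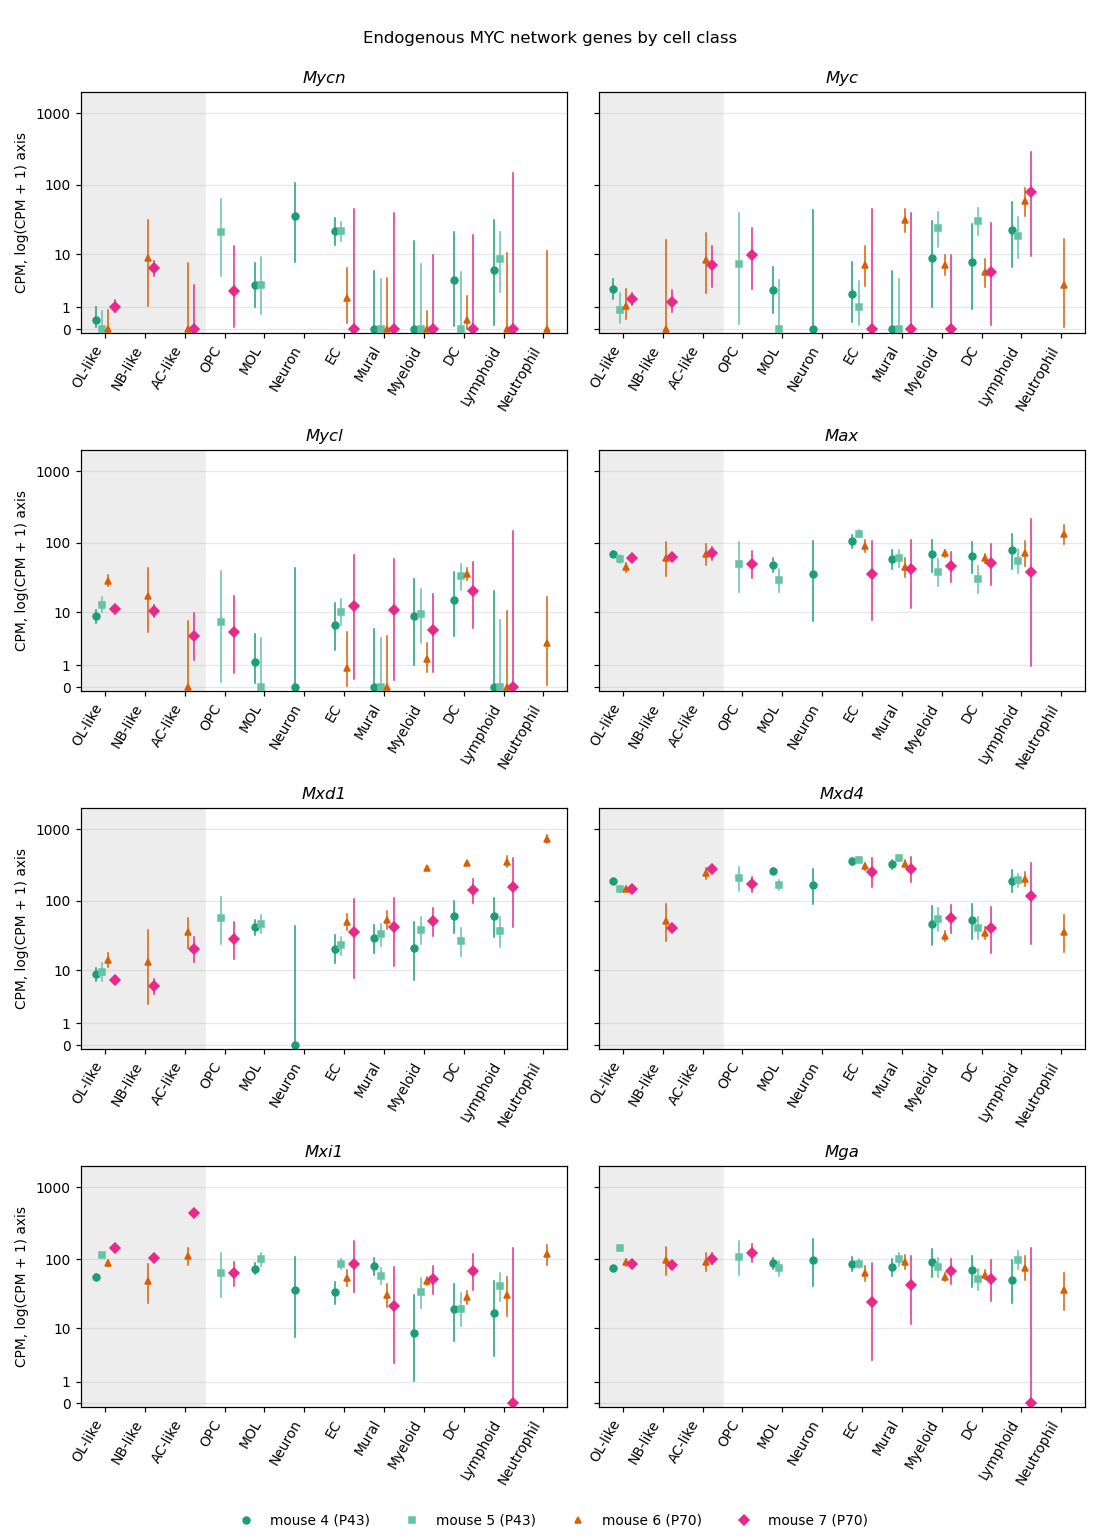
CPM of the 8 endogenous genes by cell class on a log(CPM + 1) axis, 1 point per mouse with its exact 95% Poisson interval, tumor classes shaded and sums of under 20 cells left out. Mxd1 is lowest in OL-like and NB-like cells among classes with more than 1 mouse, Mxd4 is highest in vessel cells and low in NB-like cells, and Mycn and Myc lie near 0 in OL-like cells.

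All 8 endogenous genes passed the count filter in the fit across classes. Mycn, Myc and Mxd1 passed it through classes other than OL-like cells, and their calls against OL-like cells were also made without the filter. Of the 8, 0 were higher and 4 lower in OL-like cells than in EC, where 52.2% of all genes tested were called (27.3% higher and 24.8% lower). Against mural cells 1 was higher and 3 were lower, beside 24.6% and 25.2% of all genes (49.8% in all). Against myeloid cells 1 was higher and 2 were lower, beside 31.0% and 26.2% (57.2%). Against DC 2 were higher and 3 lower, beside 30% and 25.1% (55.0%). Against lymphoid cells 2 were higher and 3 lower, beside 26.3% and 19.3% (45.6%). Against MOL 1 was higher and 1 lower, beside 13.8% and 16.5% (30.3%). Counts of 2 to 5 of 8 thus stood beside shares of 30.3% to 57.2%, and nothing particular to the members is read from them.

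Tumor classes differed from each other in Mycn and Mxd4. NB-like cells held 8.78 CPM (2 UMIs) and 5.96 CPM (51 UMIs) of Mycn in mice 6 and 7, above all OL-like values, and the log2 difference was 3.95 ± 1.0 (adjusted p = 0.00633, edgeR). Within mouse 7, where both classes are deep, the ratio of levels was 5.67 (exact 95% interval 3.54 to 9.22). OL-like cells of mouse 7 include 222 cells of the cluster with Tubb3 and Neurod2, whose part in Mycn was not tested. Mxd4 differed by -1.75 ± 0.32 (adjusted p = 0.00015) and was called under all alternatives, while Mycn was called in all in which it could be tested, which leaves out the one without mice 4 and 5 and that with the reporter limit over all mice. With members among the variable genes, cells named NB-like came from all 4 mice (946, 30, 41 and 716 cells), OL-like cells of mouse 4 fell from 1787 to 829, and the differences were 3.15 for Mycn (adjusted p = 0.0244) and -0.93 for Mxd4 (adjusted p = 0.0263). These were the 2 of 8 members called between NB-like and OL-like cells, where 17.7% of all genes were (6.94% higher and 10.7% lower). AC-like cells held more Mxd4 than OL-like cells (246 and 276 CPM in mice 6 and 7, 0.80 ± 0.27, adjusted p = 0.0356), the 1 of 8 members called against 18.2% of all genes. That call held in 2 of 13 alternatives only, those with DESeq2 and with RLE size factors, and without mouse 7 the difference was 0.48 with an adjusted p of 0.326. AC-like cells also had 0 and 4.16 CPM of Mycl, a difference of -2.43 ± 0.91 that was not called (adjusted p = 0.0657), and Mxi1 differed by 1.12 ± 0.43 (adjusted p = 0.0711).

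Whether the endogenous genes go with the transgene was asked inside OL-like cells of each mouse. Cells of at least 2000 UMIs were thinned to 2000 and ranked by FLUC alone, full counts of low and high cells were summed, and FLUC was left out of totals and untested. The limits were set to part the cells in 3, but ties left a middle group in mice 5 and 6 only. Low cells had at most 0, 1, 1 and 1 FLUC UMIs and high cells at least 1, 4, 3 and 2 in mice 4 to 7, so that mice 4 and 7 were cut in 2. humanNMYC went with FLUC in every mouse, from 123 to 294, 423 to 2047, 682 to 1975 and 408.5 to 970 CPM in mice 4 to 7 (log2 difference 1.55 ± 0.13, adjusted p = 0.000125, edgeR). It was the only 1 of the 7 members tested that was called, where 0.721% of all genes were, and Mycn and Myc lay under the filter. Mga came nearest among the endogenous genes. It went from 61.7 to 79.0, 118 to 170, 71.5 to 94.0 and 74.9 to 93.4 CPM in mice 4 to 7, higher in the FLUC-high cells of 4 of 4 mice (0.37 ± 0.08, adjusted p = 0.0542). With cells ranked by humanNMYC in place of FLUC the adjusted p of Mga was 0.0149, and with DESeq2 0.0315, while without mouse 5 it was 0.246 and for cells without against cells with a FLUC UMI 0.166. Mxi1 was also higher in 4 of 4 mice (0.26 ± 0.09, adjusted p = 0.185), and Mycl was lower in 3 of 4 (-0.49 ± 0.17, adjusted p = 0.196). Mxd4 (0.003 ± 0.09), Max (0.05 ± 0.10) and Mxd1 (-0.03 ± 0.27) moved little and in no common direction. FLUC-high cells had the higher median of UMIs in all mice, from 5342 against 4638 in mouse 4 to 24650 against 19340 in mouse 5, and the part of depth was not tested in the full sums, whereas summing the thinned counts called humanNMYC alone as well. Markers of other cells moved with the split. The mural list summed to 171.5, 242.3, 1111 and 11.2 CPM in FLUC-low and 79.7, 22.1, 36.2 and 9.88 CPM in FLUC-high cells of mice 4 to 7, and the mature oligodendrocyte list to 766.7, 2088, 1385 and 1543 against 807.1, 1674, 961.9 and 818.4 CPM. Their part in the differences was not tested, and without mouse 6, where the mural sum is largest, humanNMYC differed by 1.56 and Mga by 0.36 (adjusted p = 0.0456).

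**Figure D3:**
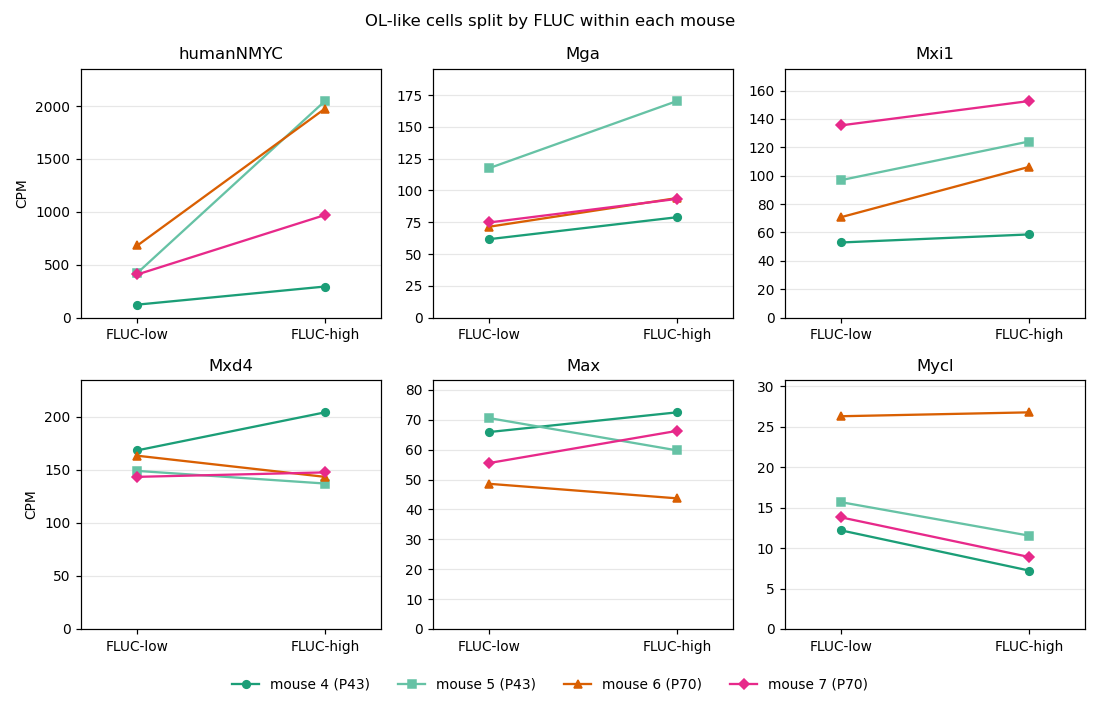
CPM in FLUC-low and FLUC-high OL-like cells, 1 line per mouse, each panel from 0 and with its own scale. humanNMYC, Mga and Mxi1 lie higher in the FLUC-high cells of all 4 mice, and the lines of Mxd4 and Max cross.

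Cell by cell, at 2000 UMIs, FLUC and humanNMYC correlated with Pearson's r of 0.354, 0.733, 0.513 and 0.511 in 707, 210, 349 and 2207 OL-like cells of mice 4 to 7. These cells share a library and a depth, and r is a description. For the endogenous genes r with FLUC lay between -0.068 and 0.131, in counts so sparse that many cells had none of their UMIs.

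Dividing OL-like cells went with less Mxd4. Only cells of at least 2000 UMIs were scored, 707, 210, 349 and 2207 OL-like cells in mice 4 to 7. In mouse 4 these were 707 of 1787. A cell counted as cycling with a UMI in at least 2 of 8 cell cycle genes at 2000 UMIs. This held for 54.0%, 43.8%, 45.6% and 37.9% of the scored OL-like cells in mice 4 to 7. Mxd4 was 144, 89.1, 99.8 and 88.4 CPM in cycling cells and 232, 187, 190 and 188 CPM in non-cycling cells of the same mice, so that no cycling value reached any non-cycling value. The log2 difference was -0.94 ± 0.08 (adjusted p = 1.23e-05, edgeR) and stayed between -1.03 and -0.87 under all alternatives. Mxd4 was the 1 of 8 members tested that was called, where 15.8% of all genes were (8.93% higher and 6.86% lower), with Mycn and Myc under the filter. NB-like cells of mouse 7 gave 33.5 CPM in cycling and 61.1 CPM in non-cycling cells, without a test since 1 mouse had enough of both. Of scored cells, 65.0% and 65.5% of NB-like and 3.64% and 4.24% of AC-like cells were cycling in mice 6 and 7. The part of this in the Mxd4 differences between tumor classes was not tested. Mxd1 was lower in cycling cells of 4 of 4 mice but was not called (-0.64 ± 0.22, adjusted p = 0.0756). Other lists moved with this split as well. Mature oligodendrocyte markers summed to 657.2, 1701, 864.6 and 708.7 CPM in cycling and 905.1, 2006, 1319 and 1519 CPM in non-cycling cells, and mural markers to 132.9, 181.1, 864.1 and 11.8 against 92.4, 13.9, 29.2 and 9.55 CPM, and their part in the Mxd4 difference was not tested. The transgene showed no such split, with FLUC at 657, 1928, 1649 and 1071 CPM in cycling and 662, 1834, 1731 and 1071 CPM in non-cycling cells (0.001 ± 0.04, adjusted p = 0.99) and humanNMYC at a difference of 0.10 ± 0.05 (adjusted p = 0.160).

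**Figure D4:**
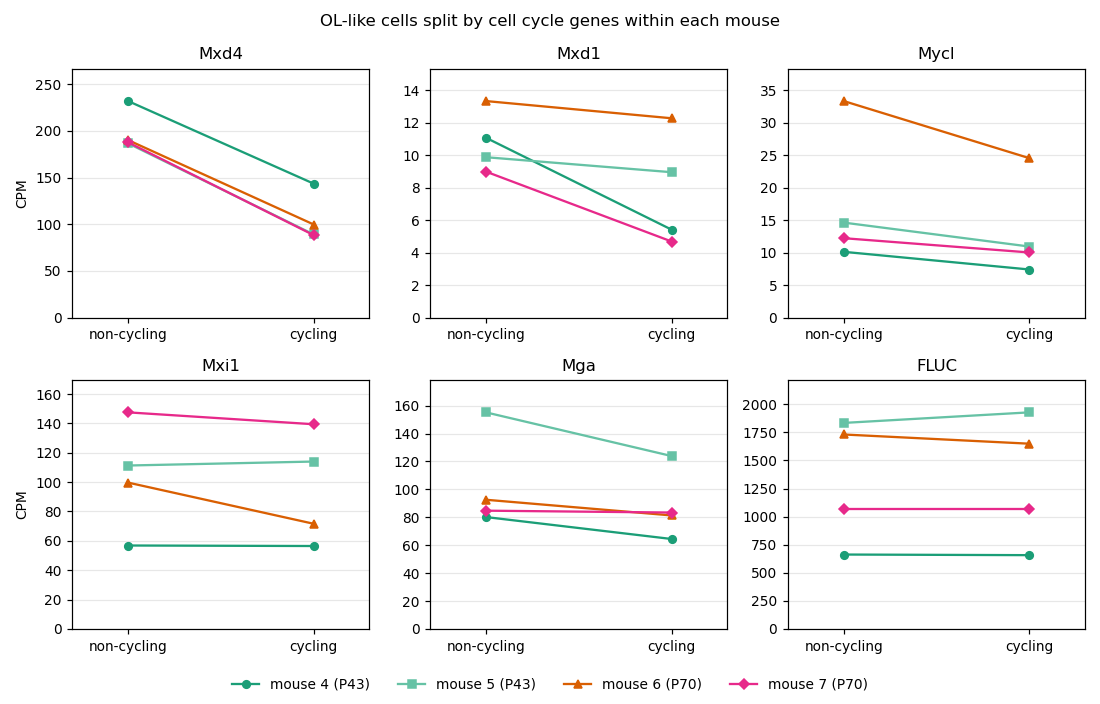
CPM in non-cycling and cycling OL-like cells, 1 line per mouse, each panel from 0 and with its own scale. All 4 lines of Mxd4 fall, by amounts close to each other, and those of FLUC stay nearly level.

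Age was compared as labelled, over 2 mice each. In OL-like cells none of the 9 members tested was called between P70 and P43, and neither was any of 11697 genes (0%), with 494 genes at an unadjusted p under 0.05 and 45 genes called by DESeq2. FLUC differed by 0.06 ± 0.56 and humanNMYC by 0.37 ± 0.82 (adjusted p = 0.9995 for both), and 2 mice an age leave wide errors. Since the sum of these features set in each mouse which clusters were tumor, these tests cannot show whether the transgene changed with age. Cells of 1 cluster were left out of OL-like in mice 4 and 5 (443 and 42 cells, under the limit). In mice 6 and 7 its cells were kept (108 and 292), so the class was not composed alike at both ages. In EC, Mycn was lower at P70, a test that Mycn entered through its P43 sums alone, with 64 UMIs at P43 and 2 UMIs at P70, a ratio of 13.8 (exact 95% interval of counting error 3.66 to 116) and a log2 difference of -3.57 ± 0.70 (adjusted p = 0.0065, edgeR, and 0.000162 without the count filter). EC of mouse 7 gave none and allow 36.8 CPM, above both P43 levels. Mxd1 was higher (1.23 ± 0.31, adjusted p = 0.0253), and these were the 2 of 9 members called where 9.69% of genes were (6.16% higher and 3.53% lower). Neither was called with DESeq2 (adjusted p = 0.272 and 0.961), without mouse 5 (0.490 and 0.61) or without mouse 6 (0.368 and 0.807), and without mouse 4 Mxd1 was lost (0.390). Immune markers were also higher in EC of mouse 6, where the 10 myeloid genes summed to 149.2 CPM and the 7 neutrophil genes to 40.1 CPM, against 4.2 and 10.5 CPM in mouse 4, 2.04 and 4.59 CPM in mouse 5 and none in mouse 7. Their part in Mxd1 was not tested, and Mxd1 in EC of mouse 7 was 36.8 CPM from 3 UMIs. The age difference in EC minus that in OL-like cells was -3.78 ± 2.12 for Mycn (adjusted p = 0.785) and 0.43 ± 0.62 for Mxd1 (adjusted p = 0.961), where 0.0685% of genes were called. In myeloid cells 0 of the 5 members tested were called (0.304% of all genes, 0.161% higher and 0.143% lower), with Mxd1 at 2.53 ± 0.77 (adjusted p = 0.240) beside the neutrophil marker sums given above, and DESeq2 called Mxd1 alone (adjusted p = 0.0218).

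Genes around the network were taken from lists that were chosen with earlier results of these data known. Counts of called list genes are therefore descriptive. The 15 MYC targets include genes of ribosome production, nucleotides, polyamines and the cell cycle. Of these 15, 12 were higher and 1 lower in OL-like cells than in EC (median log2 difference 1.79, against 0.15 over all genes tested). Of all genes tested, 27.3% were higher and 24.8% lower there. Corresponding counts were 14 and 1 against mural cells, 11 and 1 against myeloid cells, 12 and 1 against DC, 11 and 1 against lymphoid cells and 14 and 0 against MOL, with medians of 1.31 to 1.89 against 0.03 to 0.43 over all genes. Beside these counts, 13.8% to 31.0% of all genes were higher and 16.5% to 26.2% lower. Srm, the spermidine synthase, was among the largest, at 3.47 ± 0.32 against EC (adjusted p = 2.39e-10), and Npm1, a nucleolar protein, reached 2.84 ± 0.30. The gene that went the other way was Ccnd2, a G1 cyclin, at -4.17 ± 0.51 against EC. Ccnd2 was also the only target called in NB-like against OL-like cells (5.23 ± 0.56) and the only one higher in AC-like cells (5.86 ± 0.56), where 10 others of the 15 were lower, with a median of -1.04 against 0.04. Of all genes, 6.94% were higher and 10.7% lower in NB-like cells, and 12.2% and 5.96% in AC-like cells. In FLUC-high cells 2 of 15 targets were called, the nucleolar genes Ncl (0.39 ± 0.06, adjusted p = 0.0154) and Nolc1 (0.36 ± 0.07, adjusted p = 0.0416), with a median of 0.10 against -0.01. Of all genes, 0.225% were higher in FLUC-high cells.

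Other lists are set beside all genes. In the 6 comparisons with normal classes, 13.8% to 31.0% of these were higher and 16.5% to 26.2% lower in OL-like cells. Their medians were 0.03 to 0.43. Of 4 MAX or MLX partners tested, 0 to 2 were higher and 0 to 2 lower (medians -0.81 to 2.35). Mxd3, an MXD protein known from S phase and left out of the members, was higher in OL-like cells than in EC (4.33 ± 1.03, adjusted p = 0.000759) and in cycling than in non-cycling OL-like cells (3.24 ± 0.34, adjusted p = 7.36e-05), opposite to Mxd4. Mnt, a MAX partner that represses, and Mlxip, an MLX partner, were lower than in myeloid cells (-1.06 ± 0.31 and -1.49 ± 0.33) and DC (-1.29 ± 0.32 and -1.17 ± 0.34), and no partner was called against lymphoid cells. Of 4 SIN3 and HDAC genes that MXD proteins recruit, 1 or 2 were higher and at most 1 lower (medians -0.12 to 0.79). Hdac2 was higher than in all 6 normal classes, by 0.88 to 1.78, and Sin3b was lower than in myeloid cells (-1.21 ± 0.23), DC (-1.31 ± 0.23) and lymphoid cells (-0.84 ± 0.24). Of 7 genes of the MGA complex, 3 were higher than in EC and in lymphoid cells, 5 than in mural and myeloid cells, 6 than in DC and 2 than in MOL, and none were lower (medians 0.65 to 1.38), with Tfdp1 higher by 0.99 to 2.44 in each. Among 9 MYC coactivators, 3 were higher in each comparison, the helicases Ruvbl1 and Ruvbl2 and the acetyltransferase Kat2a, and at most 2 were lower (medians -0.02 to 0.49). Among the lower ones were the elongation kinase Cdk9 against myeloid cells (-0.83 ± 0.27) and DC (-0.86 ± 0.27) and the acetyltransferase Kat5 against mural cells (-0.84 ± 0.33). Among 9 genes of MYC turnover, 3 to 6 were higher and at most 1 lower (medians 0.56 to 1.11). Skp2, a ubiquitin ligase subunit, and the mitotic kinase Aurka, which stabilizes MYCN, were higher in all 6, and Fbxw7, which targets MYC for degradation, was lower than in EC (-1.12 ± 0.37). Among cells of at least 2000 UMIs, 37.9% to 54.0% of OL-like cells by mouse were cycling. In the 6 normal classes 0% to 15.0% were (0% to 7.48% of EC). The part of this in the differences of Skp2, Aurka, Mxd3, Tfdp1 and the MYC targets was not tested. Aurka and its fellow kinase Plk1 were also higher in cycling cells (3.04 ± 0.15 and 3.39 ± 0.20), and lower in AC-like than in OL-like cells (-5.12 ± 0.89 and -2.75 ± 0.77). Since cycling cells were chosen by cell cycle genes, higher levels there of these kinases and of Mxd3 are no independent result. No gene of these 5 other lists was called between NB-like and OL-like or between FLUC-high and FLUC-low cells.

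Over 34 sums of a class in a mouse, the levels most like the transgene sum among 9505 genes were those of Cdkn2a (Pearson's r 0.905 on log2(CPM + 10)), Srm (0.897) and Rsl1d1 (0.888). Mycn was most like Scn3b (0.802), Myc like Scml4 (0.822), Mycl like Tspan33 (0.706), Max like F5 (0.620), Mxd1 like Dennd4a (0.794), Mxd4 like Sptbn1 (0.868), Mxi1 like Tprkb (0.753) and Mga like Smarcad1 (0.830). The highest sums of Mycn (36.0 CPM, neurons) and Myc (78.5 CPM, lymphoid cells of mouse 7) rest on 3 and 2 UMIs. Sums of a mouse share a library, and these correlations describe likeness of pattern only.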

How the data were processed

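Tumors were dissociated, live cells were sorted by 7-AAD, and 3′ libraries (10x Genomics, v3.1) were made, 1 per mouse. Index type is given as single in the methods but as dual in the labels. The deposited values are raw UMI counts per gene and barcode, which the authors made with Cell Ranger 6.0.2 (submitters' processing notes) on mm10, extended by FLUC and humanNMYC. No normalization had been applied to the deposited counts, and cells were filtered here by the study's stated limits.

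Kept were cells of 200 genes or more with a mitochondrial share under 25% and no more than 40000 UMIs, the lower end of the stated range. Doublets were treated by this limit only, and no caller was run. Clusters came from Seurat 5.3.0 (2000 variable genes without the 10 members, anchor integration, 30 components, resolution 0.5, seed 1). A name needed at least 3 list genes raised 2-fold with 10 CPM added. Tumor clusters were set against vessel and immune cells for this, and normal clusters against the cells of all other clusters. The reporter limit of 500 CPM was set for each cluster and mouse after the levels had been seen. Members and gene lists were chosen with earlier results of these data known. P77 and P92 tumors are not analysed here.

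UMI counts were summed per mouse and class (at least 20 cells) and tested with edgeR 4.0.16 (TMM, filterByExpr, quasi-likelihood test, Benjamini-Hochberg over all genes tested, limit 0.05). All classes shared 1 fit with the mouse as a block, since classes of 1 mouse come from the same animal, and the same block was used for the splits of OL-like cells. For age, each class was fitted alone. The study's methods test single cells, which are not replicates of a mouse. Named were all 10 members and, of each list, at most 4 called genes with the largest fold. Intervals are 95% exact and cover counting error only, and 3 counts are taken as the limit a count of 0 allows. In simulated counts, 200 genes were changed 4-fold, of which the fits recovered 61.0% (AC-like against OL-like) to 80.5% (OL-like against myeloid) between classes, 97.5% in the FLUC split, 95.5% in the cycling split, and 59.0% (OL-like), 83.0% (EC) and 78.0% (myeloid) between ages. Between 1 and 15 unchanged genes were called in each. Smaller changes, such as those of the endogenous genes in the FLUC split, were not simulated. Alternatives were DESeq2 1.42.0, RLE size factors, no count filter, no block, mitochondrial shares under 10%, a resolution of 1, members among the variable genes, other splits, and leaving out each mouse. The reporter limit over all mice of a cluster, leaving out mice 4 and 5, and the age by class interaction were added after the data had been seen. Of the 8 endogenous genes, all matched GENCODE vM21 and 7 the RefSeq promoter table of GRCm38.p6.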

Additional observations from a re-analysis of the deposited data

Results flagged for a closer look

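Of 54 sets of 4 mice with at least 10 UMIs, 10 had 1 mouse far from the other 3 by Dixon's criterion, which chance meets in about 1 set of 20. In OL-like cells, Mxd4 was 187.8 CPM in mouse 4. In normal cells the transgene stood out in single mice: FLUC at 257.4 CPM and humanNMYC at 61.28 CPM in EC of mouse 7, humanNMYC at 60.81 CPM in mural cells of mouse 6 and at 73.48 CPM in DC of mouse 7, and FLUC at 196.3 CPM in lymphoid cells of mouse 7. EC, mural and lymphoid cells of mouse 7 number 38, 37 and 22, and the part of free RNA or doublets in these levels was not tested. Myc was 32.06 CPM in mural cells of mouse 6 and 30.93 CPM in DC of mouse 5. Mxd1 was 286.8 CPM in myeloid cells of mouse 6, beside the neutrophil marker sum of 454 CPM there, and Mxd4 was 117.8 CPM in lymphoid cells of mouse 7, from 3 UMIs.

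Outside the comparisons, 91 cells of an unnamed cluster carried the highest transgene levels. FLUC plus humanNMYC summed to 22320 CPM in its 30 cells of mouse 5 and to 7079 CPM in its 40 cells of mouse 7, against 3146 and 1764 CPM in OL-like cells of the same mice. Mga was also high there, at 718.5 CPM (29 UMIs) in mouse 5 and 312.0 CPM (16 UMIs) in mouse 7, against 143 and 84.4 CPM in OL-like cells, while Mxd4 gave 3 UMIs and 1 UMI. Their median mitochondrial share was 14.8% and 17.5% in mice 5 and 7, against 5.4% and 5.18% in OL-like cells, and its part was not tested. These cells raised 7 of the 8 oligodendrocytic lineage markers, but none of the 8 was among their 10 leading genes. They had a median of 911 UMIs, a median ratio of 0.182 to the median of their own library. For these reasons they were left unnamed and entered no test. Neutrophils, with enough cells in mouse 6 alone, held 739.4 CPM of Mxd1.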

How the results depend on the processing

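Of 102 member values tested, 30 were called. Of these, 14 kept their call in each alternative in which they were tested (the Mycn calls against EC and NB-like cells could not be tested in 2 of them), and 16 were lost in at least 1. The 1 call that turned its direction was Myc of OL-like against mural cells, -2.20 with all mice and -2.95 to 5.42 when each mouse was left out in turn, with 5.42 without mouse 6. The cause of the changes that follow was not tested.

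For OL-like cells the number of members called was 4 against EC (2 with the reporter limit over all mice of a cluster, 2 without mice 4 and 5, 3 to 4 with each mouse left out in turn), 3 against myeloid cells (5 at a resolution of 1, 5 at a mitochondrial share under 10%, 5 without the count filter, 3 to 4 with mice left out in turn), 5 against DC (2 without mice 4 and 5, 2 to 5 in turn), 5 against lymphoid cells (2 without mice 4 and 5, 4 to 5 in turn) and 2 against MOL (1 to 3 in turn). It was 2 for NB-like cells (1 with the reporter limit over all mice, 1 without mice 4 and 5, 2 in turn) and 1 for AC-like cells (2 with DESeq2, 2 with RLE, 0 at a mitochondrial share under 10%, 0 to 1 in turn). The FLUC split called 1 member (2 with DESeq2, 2 without the filter, 1 to 2 in turn) and the cycling split 1 (2 without the filter, 1 to 2 in turn). Between ages it was 2 in EC (0 with DESeq2, 0 to 2 in turn) and 0 in myeloid cells (1 with DESeq2, 1 without the filter, 0 to 1 in turn).

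Without the replicate block of the mouse, 0 members were called in AC-like cells and 0 in the FLUC split, where the count of all genes went from 77 to 0 with 207 at an unadjusted p under 0.05 (edgeR), and that of the cycling split from 1748 to 283. No paired analysis was possible because the ages hold different animals.

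Counts of all genes called also moved by over 1.5 times. Without mice 4 and 5 they fell from 6826 to 3598 (EC), 6510 to 3031 (mural), 5961 to 2872 (lymphoid), 2375 to 1461 (AC-like), 1748 to 1106 (cycling) and 77 to 46 (FLUC). MOL went from 3967 to 2128 without mouse 4 and 1389 without mouse 5, NB-like from 2311 to 569 without mouse 7 and 1231 with members among the variable genes, where the class holds cells of all 4 mice, AC-like to 916 without mouse 6, and cycling to 751 without mouse 7. The FLUC split gave 296 ranked by humanNMYC, 8 for cells without against with a FLUC UMI, 44 at under 10% mitochondrial UMIs, 638 without the filter, 49 from thinned sums, 5 without mouse 5 and 131 without mouse 6. Cycling gave 989 higher and 759 lower genes with edgeR and 665 and 330 with DESeq2 (995 in all). Between ages, OL-like cells gave 45 with DESeq2 and 2 without the filter. EC went from 854 to 258 with DESeq2, 415 without mouse 4, 0 without mouse 5 (734 at an unadjusted p under 0.05) and 193 without mouse 6. Myeloid cells went from 17 to 94 with DESeq2, 344 without the filter, and 27, 99, 283 and 558 without mice 4, 5, 6 and 7.

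DESeq2 moved the median log2 difference of all genes by over 0.1 against lymphoid cells (0.43 to 0.06), mural cells (0.03 to -0.20), EC (0.15 to -0.03), MOL (0.08 to -0.06) and DC (0.28 to 0.18), in NB-like cells (-0.15 to 0.03) and in AC-like cells (0.04 to 0.17), and RLE moved it against mural cells (to -0.08), in NB-like cells (to about 0) and in AC-like cells (to 0.14). Members that turned direction with scaling were not called. The 4 mice, single libraries with few EC, mural and lymphoid cells in mouse 7, limit precision.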
